A study of Mus musculus with 12 samples.

Results

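The MHC class II genes and their regulator *Ciita* were followed in mouse hematopoietic stem and progenitor cells (HSPCs) after knockdown of *Rad21*, which encodes a subunit of the cohesin ring. The 10 genes were chosen by name and found by gene symbol among the 46078 genes of the count table. They comprise the classical chains *H2-Aa*, *H2-Ab1* and *H2-Eb1*, the invariant chain *Cd74*, the peptide-editing genes *H2-DMa*, *H2-DMb1*, *H2-DMb2*, *H2-Oa* and *H2-Ob*, and *Ciita*. RNA-seq was performed on 12 libraries of C57BL/6 cells, 3 in each of 4 groups. In culture, LSK cells (lineage-negative, Sca-1+, c-Kit+ bone marrow cells) were infected with a lentivirus carrying GFP and an shRNA against luciferase (shLuci, the control) or *Rad21* (shRad21), and GFP+CD48-Sca-1+ cells were sorted 3 d later. In vivo, the same shRNAs were carried by LSK cells that had been transplanted after infection, and GFP+ LSK cells were recovered from the recipient mice. The labels place this sort 3 mo after transplantation and the study's methods place it later. All 4 groups thus carry a GFP lentivirus, the knockdown is partial, and each group is a sorted pool of several progenitor types.

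MHC class II molecules are heterodimers of an alpha and a beta chain that show peptides from the endosomal pathway to CD4+ T cells. The invariant chain guides the new dimer to the endosome and fills its groove, the DM dimer exchanges the remaining fragment for peptide, and the DO dimer restrains DM. *Ciita* encodes a coactivator that does not bind DNA itself but is recruited to the promoters of these genes by the RFX, CREB and NF-Y proteins, which occupy the neighbouring X and Y boxes. Class II expression is best known from B cells, dendritic cells and macrophages. Mice of the C57BL/6 strain carry a defective *H2-Ea* gene, so the E beta chain encoded by *H2-Eb1* lacks its usual partner there.

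In GRCm38, 8 of the 10 genes lie within 224.3 kb of chromosome 17, between 34092340 and 34316674, an interval that 18 annotated genes touch. *H2-Oa* lies at its proximal end (34092340-34095234, plus strand). The genes of the DM dimer follow, *H2-DMa* at 34119541-34139101, *H2-DMb2* at 34143307-34151555, and *H2-DMb1* at 34153072-34160230, all on the plus strand. The distal end holds *H2-Ob* (34238903-34254414, plus strand), *H2-Ab1* (34257689-34269419, plus strand), *H2-Aa* (34282744-34287823, minus strand), and *H2-Eb1* (34305867-34316674, plus strand). *Ciita* lies on chromosome 16 from 10480059 to 10528418 on the plus strand. *Cd74* lies apart from both. Exons of *H2-Oa* share 22.8% of their bases with the antisense gene *BC051537*, those of *H2-DMa* share 10.4% with *Brd2* on the opposite strand, and those of *Ciita* share 3.45% with *Dexi*. The strand setting of the read counting is not given in the sources used here, so reads of such partners may not be separated. *H2-DMb1* and *H2-DMb2* are close copies of each other, and the split of reads between them is uncertain.

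The promoters are shown because the X and Y boxes are what these genes are known to have in common. RefSeq promoter windows of 250 bases before and 50 bases after the RefSeq start of a gene (GRCm38.p6) were matched for 7 of the 10 genes. The Y box was searched as TGATTGG and the end of the X box as AAC followed after 2 bases of any kind by ATGATG, on both strands. The second motif was chosen after these promoters had been seen and does not overlap the first. The Y box was found in the windows of 6 genes and the X box end in those of 4 genes, and no match in *H2-DMa* says only that these letters are not in its windows. Among all 32851 promoter windows, 7.82% held the Y box, 0.137% the X box end, and 0.0274% both. The RefSeq start lies 39 bases (*H2-Oa*), 119 bases (*H2-DMb1*), and 1942 bases (*H2-DMb2*) downstream of the GENCODE start given above. Of the stretch around each Y box, 14 bases in *H2-Oa* and all 80 in *H2-DMb2* therefore lie within the GENCODE gene, and that of *H2-DMb1*, with 76 bases in exons, is not printed. Each line below gives 80 bases for the other 5 genes, 5′ to 3′ on the strand of the gene, ending upstream of the RefSeq start, with the matches in capitals.
H2-Aa, chr17:34287854-34287933, minus strand: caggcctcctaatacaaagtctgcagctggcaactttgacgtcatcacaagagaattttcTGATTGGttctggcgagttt
H2-Eb1, chr17:34305746-34305825, plus strand: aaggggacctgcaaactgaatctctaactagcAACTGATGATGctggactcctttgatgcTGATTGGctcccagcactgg
H2-DMb2, chr17:34145097-34145176, plus strand: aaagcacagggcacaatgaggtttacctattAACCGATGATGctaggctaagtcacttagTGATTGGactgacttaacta
H2-Ob, chr17:34238786-34238865, plus strand: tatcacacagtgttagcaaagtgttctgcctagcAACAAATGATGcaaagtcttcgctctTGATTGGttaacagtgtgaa
H2-Oa, chr17:34092274-34092353, plus strand: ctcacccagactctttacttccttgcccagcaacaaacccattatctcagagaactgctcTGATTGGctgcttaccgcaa

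The Y box began between 45 bases (*H2-Oa*) and 92 bases (*H2-DMb2*) before the RefSeq start. In the 4 promoters with both matches, the Y box began between 26 and 29 bases after the start of the X box end. Of these 4 genes, *H2-Eb1* and *H2-Ob* passed the test of the knockdown in both settings, *H2-DMb2* in vivo only, and *H2-DMb1* in neither. Without both matches, *H2-Aa* and *H2-DMa* passed in both settings and *H2-Oa* in vivo only. The part of the boxes in these results was not tested.

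Raw read counts per gene were deposited, summing to between 15235129 and 29846689 in a library. Levels are given as CPM, counts relative to the size of the library, scaled between libraries with the TMM method of edgeR. A floor of 3 counts amounts to between 0.107 and 0.210 CPM, a limit that covers counting error only. All 10 genes were above this limit in all 12 libraries and passed the filter on low counts in all comparisons. The lowest was *H2-Eb1* with 9 counts in replicate 1 of shRad21 in culture. *Rad21* itself was between 383 and 418 CPM in shLuci and between 128 and 154 CPM in shRad21 cells in culture, and between 118 and 124 CPM and between 43.4 and 47.6 CPM, respectively, in vivo. As a check of the sorted cells, *Kit* and *Ly6a* (which encodes Sca-1) were at least 266 and 85.8 CPM in all libraries. *Kit* was lower in shRad21 cells, with a log2 difference of -1.42 in culture and -0.42 in vivo (adjusted p = 1.53e-05 and 0.00659). *Ly6a* was higher in vivo (0.45, adjusted p = 0.00908) and differed by -0.62 in culture (adjusted p = 0.117, or 0.000464 with the replicate number as a block).

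Whether *Rad21* knockdown changes the class II genes was first asked in culture. There, 6 of the 10 class II genes had lower counts with shRad21 than with shLuci at an adjusted p under 0.05 (edgeR's quasi-likelihood test) and none was higher, whereas 8.06% of all 15543 genes tested were lower. The 6 genes were *H2-Aa*, *H2-Eb1*, *Cd74*, *H2-Ob*, *H2-Ab1*, and *H2-DMa*. In vivo 8 of the 10 genes were lower and none was higher, with 5.32% of all 15938 genes tested lower. The 8 genes were *H2-Ab1*, *H2-Eb1*, *H2-Aa*, *Cd74*, *H2-DMb2*, *H2-Ob*, *H2-DMa*, and *H2-Oa*. The median log2 difference of the 10 genes was -0.75 in culture and -1.05 in vivo, against -0.0039 and -0.0019 for all genes tested. The sum of their levels was between 365 and 431 CPM in shLuci and between 186 and 257 CPM in shRad21 cells in culture. In vivo the sum was between 1270 and 1510 CPM in shLuci and between 644 and 742 CPM in shRad21 cells. In a bulk sample, fewer cells of a type and less RNA per cell cannot be told apart.

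**Figure D1:**
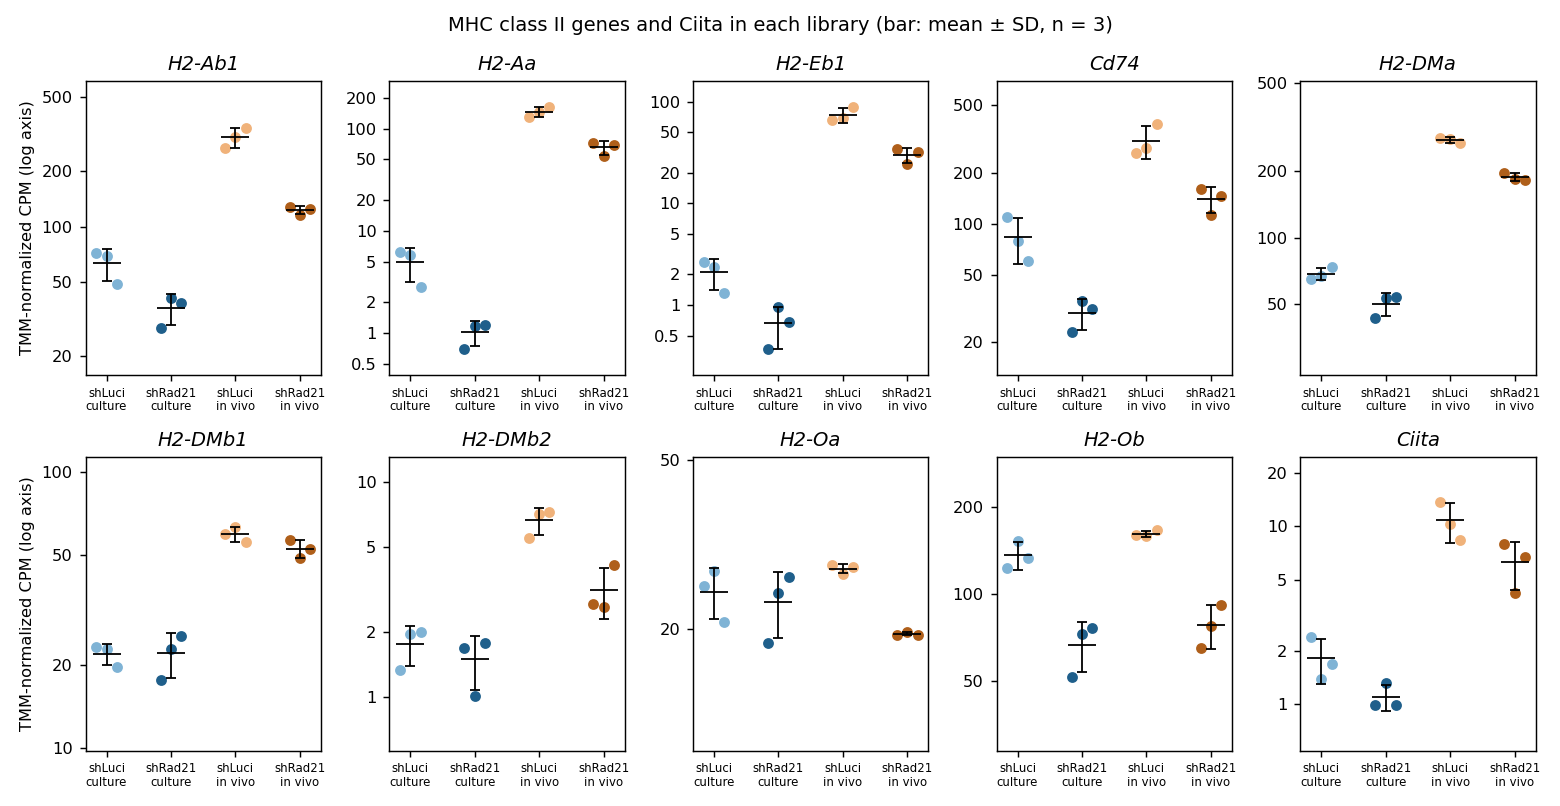
TMM-normalized CPM (log axis, scaled separately per gene) of the 10 genes in each of the 12 libraries, with 1 point per library and a bar with whiskers for the mean ± SD (n = 3). *H2-Aa* and *H2-Eb1* differ most between culture and in vivo, and the shRad21 points lie below the shLuci points for 7 of the 10 genes in culture and 9 of the 10 in vivo. The same held for 16.2% of all genes tested in culture and 15.7% in vivo.

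The classical chains fell in both settings. *H2-Aa*, the A alpha chain, was 6.17, 5.85, and 2.85 CPM in the 3 shLuci libraries in culture and 0.700, 1.16, and 1.21 CPM in the shRad21 libraries. The groups did not overlap, and 21.1% of the control level was left (log2 difference -2.25, SE 0.331, adjusted p = 0.00123). In vivo *H2-Aa* was 129, 144, and 162 CPM in shLuci and 72.5, 54.2, and 69.7 CPM in shRad21 cells. Again all shRad21 libraries were below all shLuci libraries, with 45.5% left (log2 difference -1.13, SE 0.117, adjusted p = 0.000363).

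*H2-Ab1*, the A beta chain that pairs with *H2-Aa*, was 71.8, 69.6, and 49.0 CPM in shLuci and 28.5, 41.3, and 38.9 CPM in shRad21 cells in culture. The lowest shLuci library, replicate 3, lay just above the highest shRad21 library (log2 difference -0.80, SE 0.164, adjusted p = 0.00791). In vivo it was 266, 305, and 339 CPM in shLuci and 128, 116, and 125 CPM in shRad21 cells. That difference was well separated and had the smallest p of the 10 genes in vivo, 24th among all genes tested (log2 difference -1.29, SE 0.0885, adjusted p = 4.62e-05). *H2-Eb1*, the E beta chain, was 2.67, 2.36, and 1.31 CPM in shLuci and 0.371, 0.959, and 0.676 CPM in shRad21 cells in culture. These values rest on 9 to 46 counts per library and do not overlap (log2 difference -1.64, SE 0.373, adjusted p = 0.0133), and without replicate 2 of shLuci the adjusted p was 0.0666. In vivo *H2-Eb1* was 65.6, 68.9, and 88.7 CPM in shLuci and 33.9, 24.4, and 31.9 CPM in shRad21 cells. There 40.8% of the control level was left (log2 difference -1.29, SE 0.141, adjusted p = 0.000491).

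*Cd74*, the invariant chain gene on chromosome 18, also fell in both settings. In culture it was 110.3, 78.7, and 60.3 CPM in shLuci and 23.1, 35.2, and 31.3 CPM in shRad21 cells. The shLuci libraries spread widely, and all were above the shRad21 libraries (log2 difference -1.47, SE 0.206, adjusted p = 0.000957). In vivo it was 263, 279, and 387 CPM in shLuci and 160.2, 112, and 147 CPM in shRad21 cells, with 45.6% left (log2 difference -1.13, SE 0.156, adjusted p = 0.00168). *H2-Eb2*, a second E beta gene, and *H2-Ea-ps*, the annotated *H2-Ea* pseudogene, had no counts in culture. In vivo *H2-Eb2* reached at most 0.403 CPM and *H2-Ea-ps* at most 0.302 CPM, so neither could be tested.

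Of the genes of the DM dimer, the alpha chain passed the test in both settings and the main beta chain in neither. *H2-DMa*, its alpha chain, was 65.2, 67.2, and 73.6 CPM in shLuci and 43.2, 53.5, and 54.0 CPM in shRad21 cells in culture. The groups did not overlap, with 73.5% left (log2 difference -0.44, SE 0.104, adjusted p = 0.0153). The adjusted p was 0.05002 without replicate 2 of shLuci and 0.0551 without replicate 1 of shRad21. In vivo *H2-DMa* was 283, 278, and 268 CPM in shLuci and 196, 184, and 183 CPM in shRad21 cells (log2 difference -0.54, SE 0.0580, adjusted p = 0.000454). *Brd2*, which shares exonic bases with it, differed by 0.070 in culture and -0.075 in vivo on the log2 scale (adjusted p = 0.605 and 0.590).

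*H2-DMb1*, the main DM beta chain, was 23.1, 22.9, and 19.6 CPM in shLuci and 17.5, 22.9, and 25.5 CPM in shRad21 cells in culture. The groups overlapped, and the log2 difference was 0.016 with a 95% interval from -0.30 to 0.33 (adjusted p = 0.965). In vivo it was 59.9, 63.4, and 55.7 CPM in shLuci and 56.9, 48.9, and 52.6 CPM in shRad21 cells. The groups overlapped there too, and the interval of the difference ran from -0.35 to 0.027 around -0.16 (adjusted p = 0.286). A decrease as large as that of *H2-Ab1* or *Cd74* lies outside both intervals. *H2-DMb2*, the second DM beta gene, was lower than *H2-DMb1* in all libraries, with counts between 0.0442 and 0.131 times those of *H2-DMb1*. In culture it was 1.33, 1.95, and 2.01 CPM in shLuci and 1.69, 1.01, and 1.78 CPM in shRad21 cells, which overlapped (log2 difference -0.23, 95% interval -0.84 to 0.38, adjusted p = 0.661). In vivo it was 5.51, 7.10, and 7.29 CPM in shLuci and 2.70, 2.60, and 4.09 CPM in shRad21 cells (log2 difference -1.07, SE 0.234, adjusted p = 0.0174). That call was lost when replicate 2 or 3 of shLuci or replicate 1 or 2 of shRad21 was left out, with adjusted p-values of at most 0.0679.

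Of the genes of the DO dimer, the beta chain passed in both settings and the alpha chain in vivo. *H2-Ob*, the DO beta chain, was 122, 153, and 133 CPM in shLuci and 51.5, 72.3, and 76.1 CPM in shRad21 cells in culture. The groups were far apart, with 49.2% left (log2 difference -1.02, SE 0.138, adjusted p = 0.000790). In vivo it was 159.6, 159, and 166 CPM in shLuci and 64.8, 77.3, and 91.3 CPM in shRad21 cells, with 48.7% left (log2 difference -1.04, SE 0.109, adjusted p = 0.000416). *H2-Oa*, the DO alpha chain, was 25.2, 27.4, and 20.7 CPM in shLuci and 18.5, 24.3, and 26.4 CPM in shRad21 cells in culture. The groups overlapped (log2 difference -0.072, 95% interval -0.40 to 0.26, adjusted p = 0.819). In vivo *H2-Oa* was 28.3, 27, and 27.9 CPM in shLuci and 19.3, 19.6, and 19.3 CPM in shRad21 cells. The groups were clearly apart there (log2 difference -0.50, SE 0.0973, adjusted p = 0.0100), and without replicate 3 of shRad21 the adjusted p was 0.0538. The antisense gene *BC051537* differed by 0.29 in culture and -0.45 in vivo on the log2 scale (adjusted p = 0.638 and 0.463).

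*Ciita*, the coactivator of these genes, was 2.38, 1.39, and 1.68 CPM in shLuci and 0.989, 1.31, and 0.996 CPM in shRad21 cells in culture. These values rest on 24 to 36 counts per library. The groups did not overlap, but the difference did not pass the threshold (log2 difference -0.70, 95% interval -1.31 to -0.095, adjusted p = 0.126). In vivo it was 13.7, 10.4, and 8.35 CPM in shLuci and 7.91, 4.22, and 6.73 CPM in shRad21 cells. The groups were again apart without passing the threshold (log2 difference -0.77, 95% interval -1.33 to -0.20, adjusted p = 0.0869). With DESeq2 in place of edgeR the adjusted p in vivo was 0.0255. Counting *Ciita*, 7 of the 10 class II genes in culture and 9 of the 10 in vivo had groups without overlap, all with the lower values in shRad21 cells. Of all genes tested, 16.2% in culture and 15.7% in vivo were apart in that direction.

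**Figure D2:**
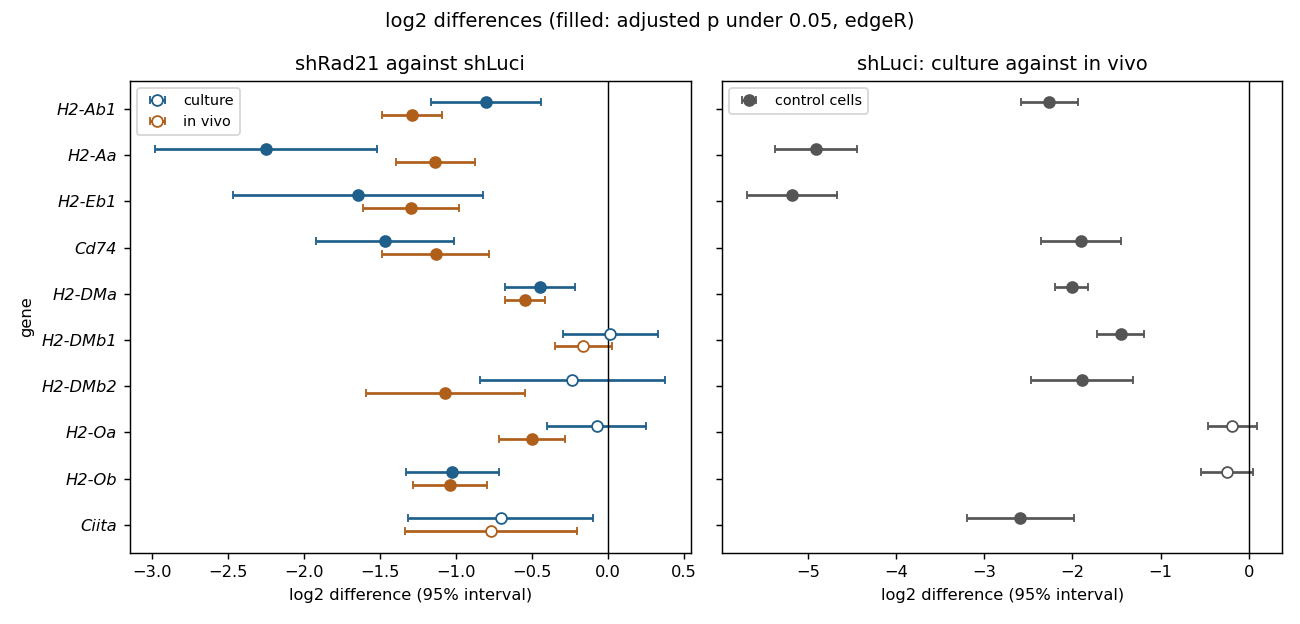
log2 differences with 95% intervals for the 10 genes, shRad21 against shLuci in culture and in vivo (left) and shLuci cells in culture against in vivo (right), with filled points for an adjusted p under 0.05 in edgeR's quasi-likelihood test. *H2-DMb1* lies close to 0 in both settings on the left, and *H2-Aa* and *H2-Eb1* lie near -5 on the right.

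Whether the knockdown acts on a gene to a different extent in culture and in vivo was tested as an interaction. None of the 10 genes passed the threshold, compared with 3.03% of the 17050 genes tested with a lower and 1.64% with a higher value in culture. DESeq2 also called none, and 4 of the 10 genes had an unadjusted p under 0.05 in edgeR. The largest of these 4, that of *H2-DMb2* (unadjusted p = 0.0434), ranked only 2823rd among the 17050 genes, so such p-values were common. *H2-Aa* was the one with the smallest p, with a decrease in culture that was larger than in vivo by 1.09 on the log2 scale (interaction -1.09, SE 0.360, adjusted p = 0.109). Without replicate 3 of shLuci in culture, the interaction of *H2-Aa* passed (-1.40, adjusted p = 0.0119). The other 3 genes had the lower estimate in vivo, with interactions of 0.84 for *H2-DMb2*, 0.50 for *H2-Ab1*, and 0.43 for *H2-Oa* (adjusted p = 0.262, 0.216, and 0.229).

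The shLuci-infected control cells of both settings were compared to describe class II levels without *Rad21* knockdown. 8 of the 10 genes were lower in culture, where 37.1% of all 17050 genes tested were. The decrease was largest for *H2-Eb1* (log2 difference -5.18, SE 0.239, adjusted p = 6.97e-11) and *H2-Aa* (-4.90, SE 0.217, adjusted p = 4.44e-11), of which 2.77% and 3.34% of the in vivo level was found in culture. *Ciita* was lower by -2.59 (SE 0.283), *H2-Ab1* by -2.26 (SE 0.151), *H2-DMa* by -2.01 (SE 0.0869), *Cd74* by -1.91 (SE 0.213), *H2-DMb2* by -1.89 (SE 0.270), and *H2-DMb1* by -1.45 (SE 0.124) on the log2 scale. The DO genes *H2-Oa* (-0.19, adjusted p = 0.210) and *H2-Ob* (-0.25, adjusted p = 0.119) did not pass. With the replicate number as a block, *H2-Ob* passed (adjusted p = 0.0356), and with upper-quartile or library-size scaling both did. Those scalings put the median of all genes at -0.12 and -0.18, *H2-Oa* at -0.30 and -0.36, and *H2-Ob* at -0.36 and -0.42. The culture and in vivo libraries were made with different kits (TruSeq RNA v2, and SMART-Seq v4 with Nextera XT), sorted through different gates, and sequenced in different lanes, so setting and technique cannot be told apart.

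To compare genes with each other, CPM was divided by the exonic length in kilobases. In shLuci cells in vivo, *Cd74* was highest at 184 ± 40.3 CPM per kb (SD, n = 3), followed by *H2-Ab1* (118 ± 14.1) and *H2-DMa* (80.2 ± 2.29). *H2-Eb1* (38.3 ± 6.42), *H2-Aa* (38.2 ± 4.39), *H2-DMb1* (35.5 ± 2.28), and *H2-Ob* (29.99 ± 0.695) came next, of which the first 3 lay within their spread. *H2-Oa* (19.7 ± 0.491), *H2-DMb2* (3.80 ± 0.558), and *Ciita* (1.13 ± 0.283) were lower. With the length of the principal transcript in place of all exonic bases, *H2-Aa* was at 129 CPM per kb, above *H2-Eb1* at 44.6, and *H2-Ab1* at 250.1 was above *Cd74* at 220. In shLuci cells in culture, *Cd74* was again highest (49.5 ± 15.1 CPM per kb), but *H2-Ob* (25.3 ± 2.85) and *H2-Ab1* (24.7 ± 4.90) followed at about the same level. *H2-Aa* (1.305 ± 0.483), *H2-Eb1* (1.09 ± 0.367), and *H2-DMb2* (1.01 ± 0.214) lay within their spread of each other near the low end, above *Ciita* (0.191 ± 0.0538). With the principal transcript's length *H2-Aa* was at 4.39 CPM per kb there, above *H2-Eb1* at 1.26 and *H2-DMb2* at 1.24. The cultured cells thus had the A beta chain and the invariant chain at levels far above those of the A alpha chain per length.

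Ratios of counts within a library do not depend on the scaling between libraries. *H2-Aa* counts were between 0.474 and 0.484 of *H2-Ab1* counts in shLuci cells in vivo and between 0.468 and 0.566 in shRad21 cells, which overlapped. In culture the ratio was between 0.0581 and 0.0859 in shLuci and between 0.0246 and 0.0311 in shRad21 cells, which did not overlap. *H2-Eb1* per *H2-Ab1* followed the same order, between 0.226 and 0.262 and between 0.211 and 0.265 in vivo, and between 0.0267 and 0.0371 and between 0.0130 and 0.0232 in culture. *H2-Aa* and *H2-Ab1*, which encode both chains of a dimer, therefore fell by unequal amounts in culture. The DO ratio, *H2-Ob* per *H2-Oa*, was between 4.86 and 6.44 in shLuci and between 2.78 and 2.98 in shRad21 cells in culture, and between 5.64 and 5.93 and between 3.35 and 4.72 in vivo. The DM ratio, *H2-DMa* per *H2-DMb1*, was also lower in all shRad21 libraries, between 2.12 and 2.46 against between 2.82 and 3.75 in culture, and between 3.44 and 3.77 against between 4.39 and 4.81 in vivo. No test was run on these ratios.

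**Figure D3:**
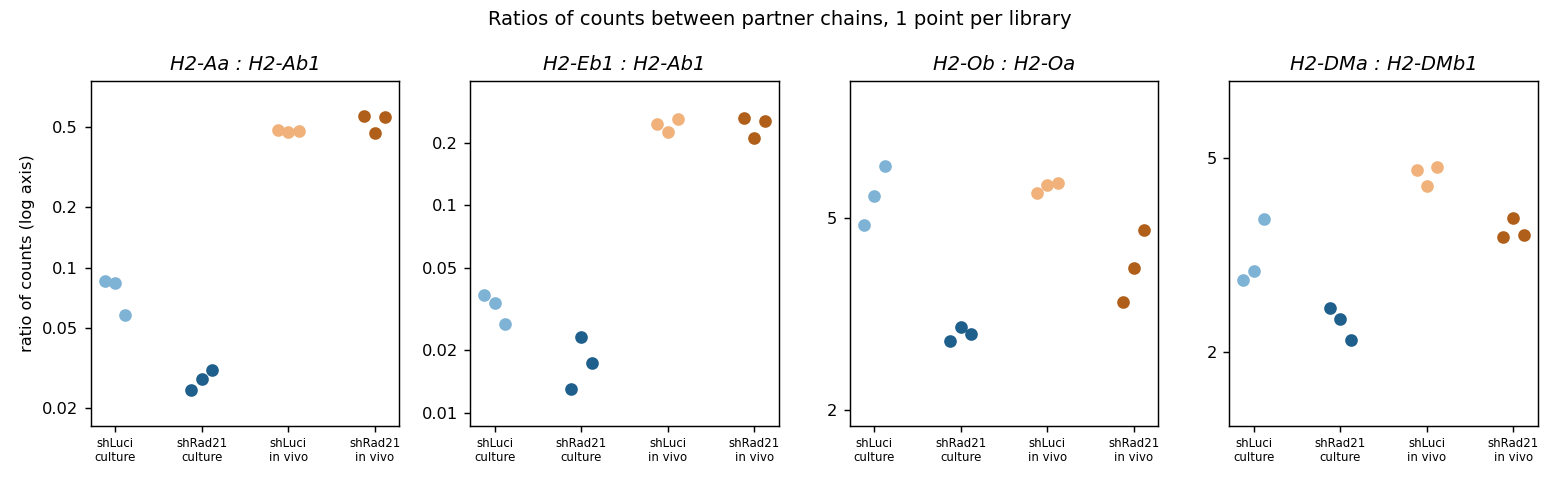
Ratios of counts (log axis) between partner chains in each of the 12 libraries, with 1 point per library and groups along the horizontal axis. *H2-Aa* and *H2-Eb1* per *H2-Ab1* separate culture from in vivo and, in culture, shRad21 from shLuci, and the DO and DM ratios are lower in shRad21 libraries in both settings.

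*H2-Ob* alone held between 28.4% and 36.6% of the counts of the 10 genes in shLuci cells in culture, more than *Cd74* (between 16.5% and 25.6%). In shLuci cells in vivo, *Cd74* held between 20.6% and 25.7%, *H2-Ab1* between 20.9% and 22.7%, and *H2-Ob* between 10.97% and 12.53%. The share of *H2-DMb1* was between 5.32% and 5.39% in shLuci and between 9.004% and 9.93% in shRad21 cells in culture, while its level overlapped between the groups.

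The interval on chromosome 17 also holds 4 genes of the class I pathway, placed between the DM genes and *H2-Ob*. *Psmb9* and *Psmb8* encode subunits of the immunoproteasome, and *Tap1* and *Tap2* encode the peptide transporter. In vivo all 4 were lower in shRad21 cells, with log2 differences of -0.38 for *Psmb9* (adjusted p = 0.00584), -0.32 for *Tap1* (adjusted p = 0.0150), -0.41 for *Psmb8* (adjusted p = 0.00160), and -0.36 for *Tap2* (adjusted p = 0.00805). In culture *Tap2* was lower (-0.34, adjusted p = 0.0467), and *Tap1* (-0.25, adjusted p = 0.0609, or 0.0330 with the replicate number as a block), *Psmb8* (-0.19, adjusted p = 0.182), and *Psmb9* (-0.082, adjusted p = 0.695) did not pass. Of 20 genes of class I presentation, 3 were lower in culture and 5 in vivo in edgeR, beside 8.06% and 5.32% of all genes tested. With the replicate block 6 were lower and 1 higher in culture, and DESeq2 called 6 lower in either setting. The shares of 8.06% and 5.32% are those of edgeR without the block. For counts from DESeq2 or the block, here and below, the share of all genes is not given, so they have no background. Their median log2 difference was -0.20 and -0.10.

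**Figure D4:**
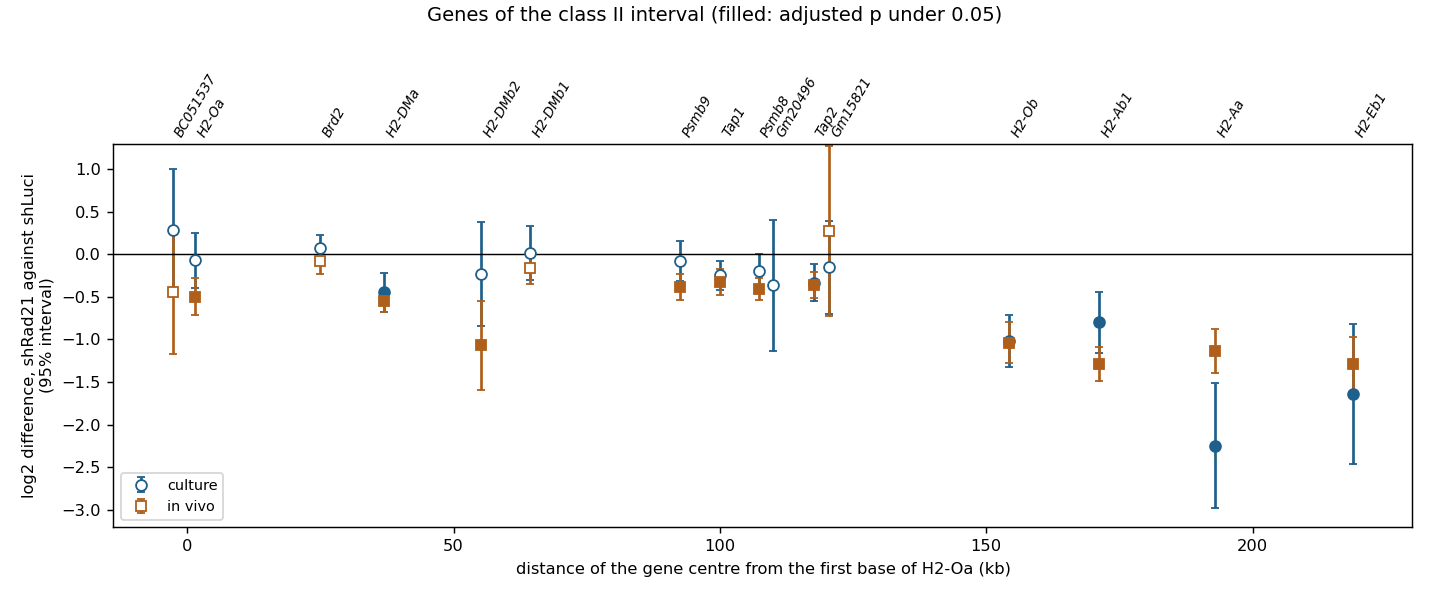
log2 difference between shRad21 and shLuci (95% intervals) of the genes tested in the class II interval, plotted against the distance of each gene's centre from the first base of *H2-Oa* in kb, with circles for culture, squares for in vivo, and filled symbols for an adjusted p under 0.05. The 4 genes at the distal end, *H2-Ob*, *H2-Ab1*, *H2-Aa*, and *H2-Eb1*, are filled in both settings, and *Brd2* and *H2-DMb1* are open in both.

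Other genes of the class II pathway were taken from lists. Of 7 genes for the proteins that occupy the X and Y boxes (*Rfx5*, *Rfxap*, *Rfxank*, *Nfya*, *Nfyb*, *Nfyc*, and *Creb1*), none passed the test in either setting. 0 of these genes in culture and 1 in vivo had an unadjusted p under 0.05 in edgeR, and DESeq2 called none in either setting. For counts of an unadjusted p under 0.05, here and below, the share of all genes is not given, so they have no background. Their log2 differences ran from -0.14 to 0.24 in culture and from -0.25 to 0.082 in vivo, and *Rfx5*, the DNA-binding RFX subunit, differed by 0.071 and -0.0036 (adjusted p = 0.676 and 0.988).

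Of the genes known to regulate *Ciita*, directly or through upstream signals, 5 of 13 tested were lower in culture and 7 of 15 in vivo in edgeR. None was higher. Of all genes tested, 8.06% were lower in culture and 5.32% in vivo. The list was not split into activators and repressors. Of its genes, DESeq2 called 4 lower in culture and, in vivo, 7 lower and 1 higher (*Socs1*, adjusted p = 0.0470). *Spi1*, which encodes the myeloid and lymphoid transcription factor PU.1, was lower in both settings (log2 difference -0.62, adjusted p = 0.00133 in culture, and -0.64, adjusted p = 0.000416 in vivo). *Irf8*, an interferon regulatory factor of dendritic and B cells, was lower by -1.07 in culture (adjusted p = 0.00177) and -1.76 in vivo (adjusted p = 0.000172). The interferon-γ receptor genes *Ifngr1* (-0.61 and -0.60) and *Ifngr2* (-0.76 and -0.80) were lower in culture and in vivo with adjusted p-values between 0.000224 and 0.00462. *Irf4* was also lower in culture (-1.29, adjusted p = 0.0420, but 0.176 with DESeq2), and *Irf1* (-0.44, adjusted p = 0.00829), *Pax5* (-3.13, adjusted p = 0.00333), and *Ebf1* (-2.13, adjusted p = 0.00572) in vivo. *Pax5* and *Ebf1* had too few counts to be tested in culture.

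Among 8 genes of cofactors of *Ciita*, *Kat2b*, a histone acetyltransferase gene, was higher in culture (0.63, adjusted p = 0.000554) and none passed in vivo, where 1 had an unadjusted p under 0.05 in edgeR and DESeq2 called 0. Of the genes that process antigen or class II molecules, 1 was lower and 2 were higher among 12 tested in culture, and 2 were lower and 2 higher among 13 in vivo. Of all genes tested, 8.06% were lower in culture and 5.32% in vivo, so the 1 lower gene in culture is near that share. The share called higher is not given, so counts of higher genes, here and below, have no background. Of the processing genes, DESeq2 called 2 lower and 2 higher in culture, and 3 lower and 2 higher in vivo. *Ctss*, whose product cathepsin S degrades the invariant chain, was lower in vivo (-1.40, adjusted p = 0.000136) and differed by 0.25 in culture (adjusted p = 0.516). *Lgmn*, an endosomal protease gene, was lower in vivo (-1.57, adjusted p = 0.00453), and *Ctsd*, the gene of cathepsin D, was higher in both settings (0.43 and 0.32, adjusted p = 0.0466 and 0.00332). Of the costimulatory genes, 4 of 5 were lower in culture and 3 of 6 in vivo, beside 8.06% and 5.32% of all genes tested. *Cd86* was lower in both settings (-1.07 and -0.83, adjusted p = 0.0393 and 0.0292), of which the difference in culture did not pass with DESeq2 (adjusted p = 0.0730). With DESeq2 3 of the costimulatory genes were lower in culture and 4 in vivo, and with the replicate block 2 in vivo.

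Markers of cells known for class II expression moved with the knockdown as well, and their part in the results was not tested. For all counts of markers called lower, the share of all genes tested was 8.06% in culture and 5.32% in vivo. For markers called higher it is not given. In vivo, 6 of 11 B cell markers were lower in shRad21 cells (*Blnk*, *Cd22*, *Cd79a*, *Ebf1*, *Pax5*, and *Vpreb3*) and none was higher. Their summed level was between 974 and 2427 CPM in shLuci and between 759 and 1497 CPM in shRad21 cells, ranges that overlapped and were made mostly of *Ighm*. None of the 11 was at 0 in all libraries of an in vivo group. Without *Ighm*, *Cd79b*, and *Cd72*, a choice made after the values were seen, the sum was between 34.6 and 59.3 CPM in shLuci and between 8.89 and 16.97 CPM in shRad21 cells, which did not overlap. None of these 3 genes was called lower in vivo, so leaving them out favours a separation of the groups. In culture the same sum was between 2.75 and 6.59 CPM and between 0.303 and 0.742 CPM, *Ms4a1* was at 0 in all 6 libraries, and *Cd79a* was at most 0.205 CPM. Most of this sum in shLuci cells in culture was *Fcer2a* (mean 3.53 CPM). There 3 of the 4 B cell markers with enough counts were lower (*Fcer2a*, *Cd72*, and *Cd79b*).

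Dendritic cell markers summed to between 722 and 751 CPM in shLuci and between 207 and 282 CPM in shRad21 cells in vivo, and to between 182 and 234 CPM and between 85.7 and 134 CPM in culture. Most of that sum was *Flt3*, which progenitors of LSK type express as well. Of the 10 tested in vivo 4 were lower (*Flt3*, *Itgax*, *Ccr7*, and *Clec10a*). Of the 6 tested in culture 4 were lower (*Zbtb46*, *Itgax*, *Ccr7*, and *Flt3*) and 2 higher. The higher ones were *Clec10a* (log2 difference 1.86), which was lower in vivo, and *Ccr9* (2.49). *Itgax*, the gene of CD11c, was at most 5.29 CPM in any library. Monocyte and macrophage markers summed to between 599 and 657 CPM and between 525 and 587 CPM in vivo, with 5 of 9 lower, and to between 185 and 248 CPM and between 170 and 186 CPM in culture, with 5 of 7 lower and 1 higher. Most of that sum was *Lyz2*, with means of 450 CPM in shLuci and 479 CPM in shRad21 cells in vivo. In culture the means of *Lyz2* were 134 and 141 CPM. Of plasma cell markers, 2 of 6 were lower in vivo and 1 of 5 in culture (*Irf4*), where DESeq2 called none. Of T cell markers, 1 of 3 was lower in vivo and none of 2 in culture, where 1 gene had an unadjusted p under 0.05 in edgeR and DESeq2 called 1.

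Replicate 1 of shLuci in vivo had the lowest B cell sum of its group, 974 CPM, and 2 of the 3 shRad21 libraries had higher sums. Without *Ighm*, *Cd79b*, and *Cd72*, its sum of 34.6 CPM was above those of all shRad21 libraries, but these 3 genes were picked after the values were seen. Its class II sum was 1274 CPM, above the 742 CPM of the highest shRad21 library. Against this library alone, the log2 differences of *H2-Ab1*, *H2-Eb1*, *H2-Aa*, *Cd74*, *H2-Ob*, and *H2-DMa* lay between -1.10 and -0.57. That range leaves out *H2-DMb2*, *H2-Oa*, *H2-DMb1*, and *Ciita*. Over all in vivo alternatives, this one among them, *H2-DMb2* lay between -1.30 and -0.793 and *H2-Oa* between -0.520 and -0.479. *H2-DMb1* lay between -0.214 and -0.108 and *Ciita* between -1.10 and -0.548. The comparison with this library was chosen after the data were seen. A lone control library has no spread of its own, so no test result is given for it. The part of B cells in the class II levels was not tested.

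**Figure D5:**
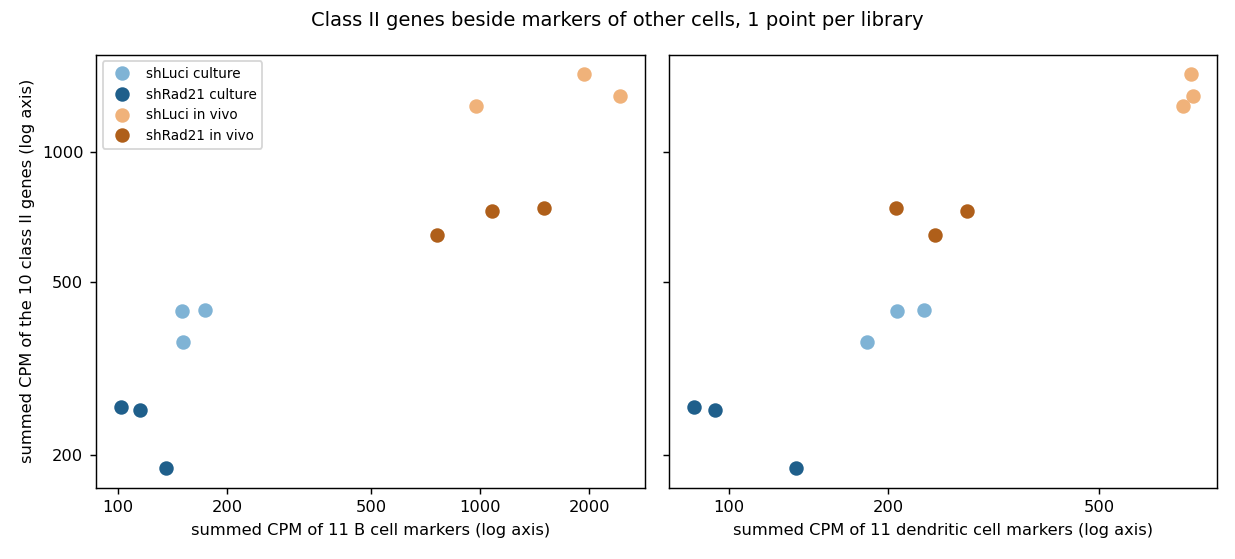
Summed CPM of the 10 class II genes (vertical, log axis) against the summed CPM of 11 B cell markers (left) and 11 dendritic cell markers (right, both log axes), with 1 point per library and colours for the 4 groups. In vivo the B cell sums of both groups overlap with *Ighm*, *Cd79b*, and *Cd72* included (without these 3 genes, picked after the values were seen, they do not). The class II sums and the dendritic cell sums in vivo do not overlap.

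The genes whose pattern was most like that of the classical chains and *Cd74* were sought among 13298 genes. The measure was Pearson's r of log2 CPM with the mean of *Cd74*, *H2-Aa*, *H2-Ab1*, and *H2-Eb1* over 12 libraries, after the mean of each setting had been subtracted, so r holds the knockdown difference and the spread between replicates. The 8 closest genes outside the 10 were *Serpinf1* (0.985), *Edem2* (0.975), *Limd2* (0.974), *Adap1* (0.974), *Pik3ap1* (0.967), *Mpnd* (0.965), *Cyb561a3* (0.964), and *Cd82* (0.962). They were lower in shRad21 cells by log2 differences between -1.13 (*Pik3ap1*) and -0.27 (*Edem2*) in culture and between -0.96 (*Adap1*) and -0.32 (*Edem2*) in vivo. Among the genes not used for the mean, *H2-Ob* had r = 0.919 and ranked 74th, *H2-DMa* had r = 0.886 and ranked 181st, and *Ciita* had r = 0.763 and ranked 789th. Over both settings, *H2-Oa* (0.752), *H2-DMb2* (0.592), and *H2-DMb1* (0.497) had the lowest r. Within culture their r was 0.549, 0.0900, and 0.360. Within in vivo it was 0.954, 0.940, and 0.728, beside 0.926 for *H2-Ob* and 0.949 for *H2-DMa*. The libraries of a setting share kit and lane, and no p is given for these values.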

How the data were processed

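RNA-seq was performed on 12 libraries, 3 per group, and groups and replicate numbers were taken from the deposited labels. Per the labels and the study's methods, the authors mapped the reads to GRCm38 with TopHat2 2.0.11 and counted them on genes with HTSeq 0.6.1. The deposited values are raw counts per gene without normalization, and the annotation release and strand setting of the counting are not given in the sources used here. Multi-mapped reads and reads on overlapping genes may be lost or split in such counts.

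Gene identifiers were matched to GENCODE M21 (849 of 46078 were not matched and held 0.105% of the counts). Levels are CPM with TMM factors over 12 libraries. Genes were kept by filterByExpr (minimum count 10) and tested with the quasi-likelihood test of edgeR 4.0.16 in R 4.3.3 with Benjamini-Hochberg adjustment over all genes tested, two-sided, at a threshold of 0.05. Culture and in vivo were fitted separately, and the comparison of control cells and the interaction were fitted on all 12 libraries. The labels do not say whether replicates came from separate animals or cultures, so p-values measure the spread between these libraries, which may be technical. SEs and 95% intervals were derived from the test statistic. DESeq2 1.42.0, the tool the submitters' processing notes name in version 1.16.1, was run as an alternative. Other alternatives were 2 scalings, 2 filters, the replicate number as a block, and leaving out 1 library at a time. A single control library and the principal transcript's length were tried after seeing the data. Same-numbered shLuci and shRad21 libraries deviated together in culture (Pearson's r across genes between 0.242 and 0.278) and not in vivo (between 0.0180 and 0.0823). The numbers come from the labels. The block was run as a check in all comparisons, although only the culture libraries deviated together by number.

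The 10 genes, the gene lists, and the tests were chosen with earlier results of these data known. Named genes were the 10 genes, genes of the lists, the neighbours within the interval, *Rad21*, and the 8 closest genes by correlation (average log2 CPM 1 or more, pseudocount 0.5). 1 gene of the B cell list is not reported here and was left out of its counts and sums. The steps were tested on simulated data. Figures and sequences were made with Python 3.11.15, pandas 2.3.3, and matplotlib 3.10.9.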

Additional observations from a re-analysis of the deposited data

How the results depend on the processing

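Of 627 recomputed differences of the 10 genes, 614 kept their direction, and the 13 that turned were all values that had not passed the threshold, with 1 library left out. These were the differences in culture of *H2-Oa* (between -0.181 and 0.0757 on the log2 scale over the alternatives) and *H2-DMb1* (between -0.101 and 0.167), and the interactions of *H2-Ob* (between -0.0977 and 0.185) and *Ciita* (between -0.154 and 0.286). The cause was not tested. With 1 library left out, between 4 and 6 of the genes were lower in culture, between 7 and 8 in vivo, and 8 between control cells, and between 0 and 1 passed for the interaction. Without a filter on low counts, 2 genes passed for the interaction, *H2-Aa* (adjusted p = 2.14e-05, against 0.109 with the filter) and *H2-Ab1* (0.0106, against 0.216). In vivo 9 genes were lower without the filter, as *Ciita* passed (adjusted p = 0.00482, against 0.0869). The share of all genes called without the filter is not given, so these calls cannot be set against a background. No conclusion on these genes is drawn from them. The replicate block left 6 genes lower in culture, 8 in vivo, and 0 for the interaction, and changed no call other than that of *H2-Ob* between control cells. With at least 10 counts in every library, *H2-Eb1* was not tested in culture and 5 genes were lower. Levels per kilobase moved by more than 1 SD in 31 of 40 cases with the principal transcript's length. Depth limits *Ciita*, *H2-DMb2*, *H2-Eb1*, and *H2-Aa* in culture, where their counts per library were lowest.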
